A study of Mus musculus with 6 samples.

Results

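Mouse chromosome 15 held 4945 of the 32988 CTCF peaks that 4 chromatin immunoprecipitation libraries gave on chromosomes 1 to 19, X and Y. Its peaks were taken by their midpoint in 2 stretches, 0 to 70 Mb with 3679 peaks, where Myc lies, and 70 Mb to the end with 1266 peaks, where the Hoxc genes lie. The border was set on the density of these same peaks, so the densities are given as a description with no test. The label of a step at 70 Mb described the fall in density there, but the chromosome did not stay sparse beyond it. A second change lay near 90 Mb, and 70 to 90 Mb and 90 Mb to the end are also given apart, a division chosen after the data were seen.

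CTCF binds DNA through an array of zinc fingers and is found at insulators, at the edges of chromatin loops and domains, and at many promoters. It works with cohesin, the ring complex that extrudes loops of chromatin until it meets bound CTCF. Myc encodes a transcription factor that drives growth and is often amplified or overexpressed in tumours. The Hoxc genes are a cluster of homeobox transcription factors that pattern the body axis, and CTCF sites are known within Hox clusters.

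The libraries came from Hepa-1c1c7, a mouse hepatoma cell line, immunoprecipitated with an antibody against CTCF (Cell Signaling, 2899S). Libraries untreated 1 and untreated 2 were from cells at 0 µM chromium, and chromium 1 and chromium 2 from cells given 25 µM potassium chromate, a hexavalent chromium salt, for 90 min before fixation. The series asks what chromium does to CTCF binding. Of the 2 input samples no values were analysed here. By the peak names, the authors called both number 1 libraries against 1 input and both number 2 libraries against the other. The labels do not tell whether a group's libraries are separate cultures, and the spread within a group may be technical. Peak lists hold CTCF calls and no expression, so the identity of the cells could not be checked against markers. The sources used here do not give the read depth, in total or along the chromosome.

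Promoter sequences show letters at or beside the recurrent peaks. A core of the known CTCF motif, CC followed by any 3 letters, AG, any 2 letters and GGC, was searched on both strands of the RefSeq promoter windows (GRCm38.p6, the coordinates of mm10), each 250 bases before to 50 after a gene's start. It was present in 8.61% of 32851 windows on all chromosomes and in 28.7% of the 735 windows that a peak of any list overlapped. On chromosome 15 it was in 9.72% of 936 windows, in 13 of the 55 windows with a peak (23.6%, exact Clopper-Pearson 95% interval 13.2 to 37.0), and in 8 of the 17 windows with peaks from 2 or more lists. Some of these 17 windows overlap one another, as those of Pcbp2 do. By stretch, 4 of 12 windows with a peak held it at 0 to 70 Mb and 9 of 43 at 70 Mb to the end. A window counts if a peak overlaps any part of it, and the letters themselves lay inside a peak of at least 1 list in 9 of the 13 windows and in 4 of the 8. Below are those 4, and Rpl37 as one where they lay at a peak's edge, cut at the gene's start, from 5′ to 3′ along the gene with the matched letters in capitals. They are shown because they compare the stretches: Rpl37 (chr15:5116446-5116547, plus strand) and Wdr70 (chr15:8099231-8099332, minus strand) lie at 0 to 70 Mb and had peaks in 3 lists, all but chromium 2. The Wdr70 letters lay inside all 3 peaks, while those of Rpl37 lay across the end of the untreated 2 peak and outside the others.
Rpl37: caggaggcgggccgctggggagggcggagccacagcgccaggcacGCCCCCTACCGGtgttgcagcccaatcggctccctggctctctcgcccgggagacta
Wdr70: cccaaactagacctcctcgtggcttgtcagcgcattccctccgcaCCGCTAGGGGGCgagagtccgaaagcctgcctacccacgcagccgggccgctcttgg
At 70 Mb to the end, Dennd6b (chr15:89196598-89196699, minus strand), Tmem106c (chr15:97964073-97964174, plus strand) and Mfsd5 (chr15:102279271-102279372, plus strand) had peaks in untreated 1 and chromium 1. The letters lay inside both peaks, except that the chromium 1 peak took in only part of those of Mfsd5.
Dennd6b: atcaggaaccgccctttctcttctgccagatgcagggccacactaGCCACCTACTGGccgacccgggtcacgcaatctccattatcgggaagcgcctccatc
Tmem106c: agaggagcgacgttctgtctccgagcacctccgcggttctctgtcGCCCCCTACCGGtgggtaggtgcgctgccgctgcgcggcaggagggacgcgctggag
Mfsd5: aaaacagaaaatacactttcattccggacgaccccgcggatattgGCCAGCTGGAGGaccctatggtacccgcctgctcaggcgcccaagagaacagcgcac

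Rpl37, a ribosomal protein of the large subunit, and Tmem106c carry the same 12 letters, read here on the opposite strand to the order given above. Some promoter windows with recurrent peaks held no match to the 12 letters. They include Cox14, an assembly factor of cytochrome c oxidase (chr15:99725368-99725617, plus strand), whose peaks were in both untreated lists, and Atp5g2, which encodes subunit c of the mitochondrial ATP synthase (chr15:102671048-102671297, minus strand), with peaks in all lists but chromium 2. The 250 bases before each start are shown, with capitals for AGGGGGC, the end of a stricter form of the motif (CC, any 3 letters, AGGGGGC), searched after these sequences were seen.
Cox14: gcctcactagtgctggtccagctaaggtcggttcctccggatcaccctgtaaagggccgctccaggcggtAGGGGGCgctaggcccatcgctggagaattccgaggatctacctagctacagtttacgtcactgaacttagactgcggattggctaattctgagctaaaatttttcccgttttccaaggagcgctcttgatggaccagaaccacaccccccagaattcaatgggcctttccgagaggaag
Atp5g2: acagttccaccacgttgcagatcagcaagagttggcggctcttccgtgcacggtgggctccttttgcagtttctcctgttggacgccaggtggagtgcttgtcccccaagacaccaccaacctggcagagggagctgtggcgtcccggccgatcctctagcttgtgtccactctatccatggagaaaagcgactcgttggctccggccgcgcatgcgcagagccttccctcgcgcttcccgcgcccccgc
The Cox14 stretch held AGGGGGC 1 time, beginning 180 bases before the start, and that of Atp5g2 did not hold it on either strand. The Cox14 match lay inside the peaks of both untreated lists. These 7 letters were in 10.6% of all windows and 23.9% of those with a peak, and on chromosome 15 in 13.1% of all windows, 29.1% of those with a peak and 8 of the 17 with peaks from 2 or more lists. Some of the 17 windows overlap, and the same match (chr15:102350819-102350825) was counted for both Aaas and Gm36246. A match of letters does not show that CTCF bound there, and the absence of a match says only that these letters are not in the window.

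At 0 to 70 Mb chromosome 15 had more CTCF peaks per Mb than any other chromosome taken whole. It had fewer than the rest of the genome from 70 to 90 Mb, and again many from 90 Mb on. At 0 to 70 Mb, untreated 1 held 1113 peaks, chromium 1 held 1417, untreated 2 held 758 and chromium 2 held 391, or 15.9, 20.2, 10.8 and 5.59 per Mb in that order. From 70 Mb to the end they held 439, 516, 231 and 80, or 12.9, 15.2, 6.81 and 2.36 per Mb. The density at 0 to 70 Mb was thus 1.23, 1.33, 1.59 and 2.37 times that of the other stretch, a mean log2 ratio of 0.66 ± 0.42 (SD, n = 4 lists). The average over 70 Mb to the end hid an inner contrast. From 70 to 90 Mb there were only 69, 86, 20 and 2 peaks, or 3.45, 4.30, 1.00 and 0.100 per Mb, and from 90 Mb to the end there were 370, 430, 211 and 78, or 26.5, 30.8, 15.1 and 5.59 per Mb. All other chromosomes together had 3.88, 4.95, 1.34 and 0.548 per Mb. The end of the chromosome was therefore denser than 0 to 70 Mb in both number 1 lists and untreated 2, by 1.67, 1.52 and 1.4 times, and as dense in chromium 2. Set against 70 to 90 Mb alone the mean log2 ratio of 0 to 70 Mb was 3.42, and against 90 Mb to the end it turned to -0.46. Of the 20 other chromosomes, each taken whole, 0 were denser than 0 to 70 Mb in any list, while 9, 10, 11 and 17 were denser than 70 to 90 Mb. This sets a stretch chosen for its density against averages that include sparse parts. On chromosome 5 the 10 Mb after 135 Mb held 219, 283, 103 and 40 peaks. That is more per Mb than 0 to 70 Mb in both number 1 lists and fewer in both number 2 lists.

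**Figure D1:**
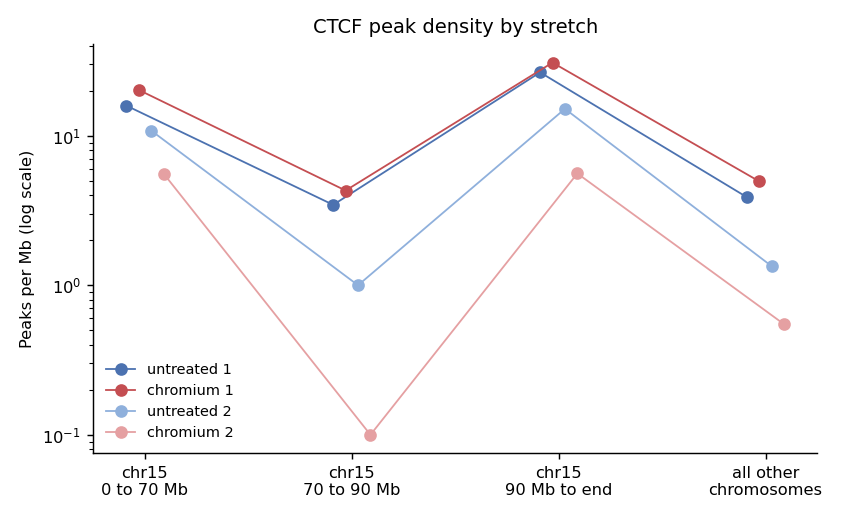
CTCF peaks per Mb (log axis) in each of the 4 lists, for 3 stretches of chromosome 15 and for all other chromosomes together. Each point is 1 list and lines join the points of a list. Every list was lower at 70 to 90 Mb than on either side, with 3.45, 4.30, 1.00 and 0.100 peaks per Mb.

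In 1 Mb bins the stretch up to 70 Mb was filled almost without a break from 3 Mb, where the first peaks lie. At the border the counts fell to 0 or 1 within 1 bin. Over the 67 bins of the stretch the lowest, median and highest count was 6, 16 and 29 for untreated 1 and 9, 21 and 42 for chromium 1. Untreated 2 had 3, 12 and 20 and chromium 2 had 0, 5 and 12. Only chromium 2 had an empty bin there, 1 of the 67. In the last bin before the border the counts were 18, 10, 3 and 4, and in the first bin after it 0, 1, 0 and 0. Untreated 2 had gone down before the border, with 14, 6, 5 and 3 in the bins that start at 66, 67, 68 and 69 Mb. The 5 Mb before the border held 94, 114, 37 and 19 peaks and the 5 Mb after it 12, 30, 5 and 0. From 70 to 90 Mb, 5, 2, 10 and 18 of the 20 bins were empty. On the far side the counts rose over several bins, from 7, 3, 0 and 0 in the bin that ends at 90 Mb to 22, 24, 11 and 2 in the bin that starts at 92 Mb. With flanks of 10 Mb on each side, the mean log2 change over the lists was -2.92 at 70 Mb and 3.75 at 90 Mb. Of 2181 such positions over the genome, 73 had a larger change than the border at 70 Mb in either direction. They include rises and neighbouring positions of 1 change, such as 90, 91 and 92 Mb on chromosome 15. Larger falls lay on chromosome 2 at 40 Mb (-5.97), 10 at 104 Mb (-4.89), 6 at 61 Mb (-4.22) and X at 39 Mb (-4.21). A fall of this size was thus not found on chromosome 15 alone.

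**Figure D2:**
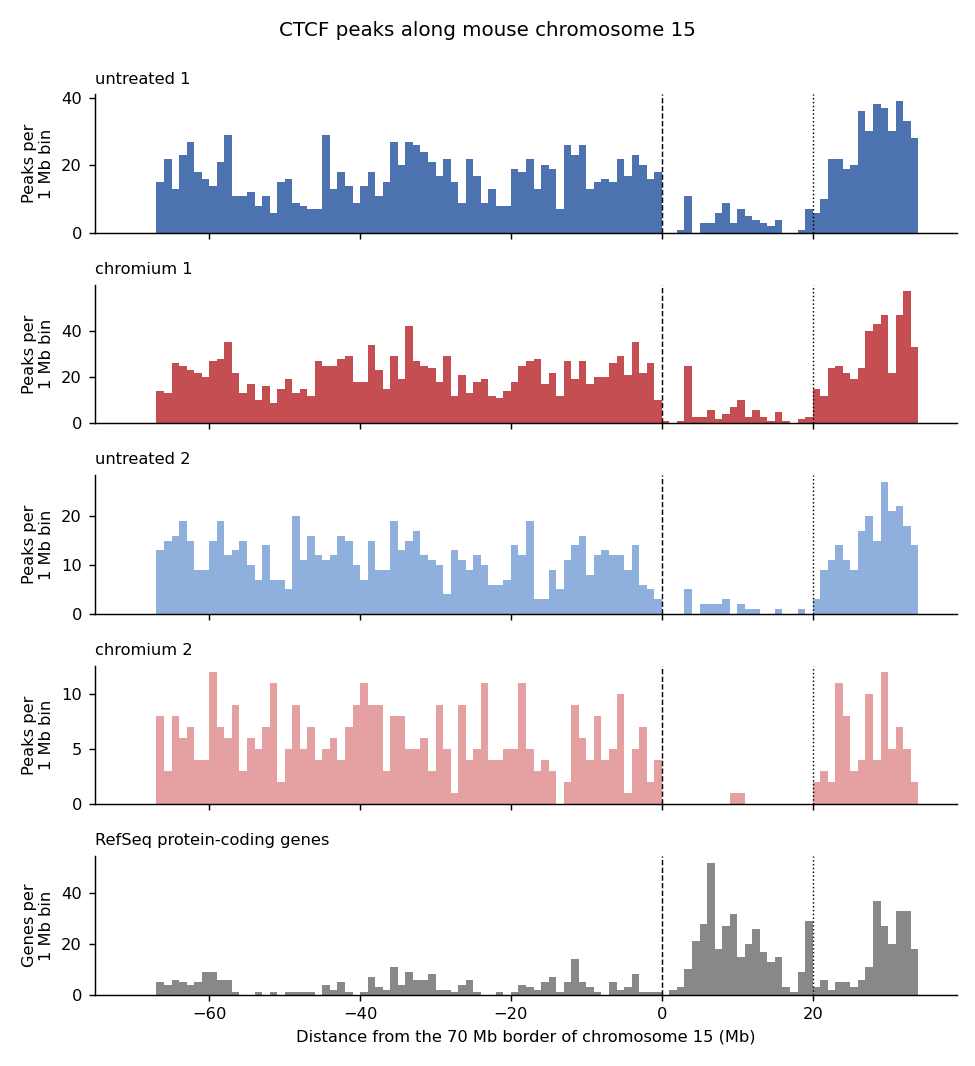
CTCF peaks per 1 Mb bin along chromosome 15 in the 4 lists and, at the bottom, RefSeq protein-coding genes per bin, by distance from the 70 Mb border in Mb (dashed line; the dotted line is 90 Mb). Counts were 18, 10, 3 and 4 in the last bin before the border and 0, 1, 0 and 0 in the first after it, which hold 1 and 0 genes. The bin with most genes, 52, starts 6 Mb beyond the border.

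The peaks nearest the border show how abrupt it was in each list. In the order untreated 1, chromium 1, untreated 2 and chromium 2, the last peak before it ended at 69963334, 69987778, 69775550 and 69920212. The first after it began at 72924657, 70601055, 73334753 and 79051316. The gaps were 2962, 614, 3559 and 9131 kb, the narrowest in chromium 1, the longest list, and the widest in chromium 2, the shortest. These bordering peaks had score percentiles within their lists of 7.08, 88.9, 5.46 and 15.4 on the near side and of 18.3, 32.1, 1.88 and 80.6 on the far side, so in 3 lists the last peak before the border was a low-scoring one. A score is the authors' own value for a peak, its scale is not stated, and it is used only as a rank within its list.

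Within the sparse 20 Mb, the bin from 73 to 74 Mb stood out, with 11, 25, 5 and 0 peaks. They included peaks in Ptk2, the focal adhesion kinase (0, 5, 1 and 0), in Dennd3 (2, 3, 1 and 0), in Slc45a4 (3, 1, 0 and 0) and in Ptp4a3, a tyrosine phosphatase (1, 4, 1 and 0). The bin from 76 to 77 Mb, with 52 genes the richest in genes, had 3, 6, 2 and 0. Peaks did not follow gene number across the border. There were 224 protein-coding genes at 0 to 70 Mb, or 3.20 per Mb, and 550 from 70 Mb to the end, or 16.2 per Mb, of which 70 to 90 Mb had 17.1 and 90 Mb to the end 15 per Mb. In untreated 1, that is 4.97 peaks for each gene at 0 to 70 Mb, 0.202 at 70 to 90 Mb and 1.77 from 90 Mb on. Inside the stretches the bins with more genes had more peaks in most lists. Over the 67 bins of 0 to 70 Mb Pearson's r between peaks and genes was 0.61 for untreated 1 and 0.51 for chromium 1, and 0.36 for untreated 2 and 0.11 for chromium 2. Bins of 1 list share its library, and these coefficients are descriptions.

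The densest bins named genes of several kinds. At 0 to 70 Mb the 3 bins with the highest mean rank were those from 34, 11 and 36 Mb. They held most peaks in Matn2, a matrilin of the extracellular matrix (13 over the 4 lists), Adamts12, a secreted metalloprotease (19), and Rgs22 (15). At 70 Mb to the end they were those from 99, 97 and 101 Mb, with most peaks in Fmnl3, a formin (10), Hdac7, a class IIa histone deacetylase (7), and Krt78, a keratin (10). The bin from 99 Mb had 37, 47, 27 and 12 peaks, and that from 34 Mb had 27, 29, 19 and 8.

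Peaks beyond 70 Mb were found again in another list more often than those before it, although there were fewer of them. In untreated 1, 103 of 1113 peaks at 0 to 70 Mb (9.25%, exact 95% interval 7.62 to 11.1) overlapped a peak of another list by at least 1 bp, and 75 of 439 from 70 Mb to the end (17.1%, 13.7 to 20.9). Over all chromosomes the share was 10.7%. In chromium 1 the shares were 6.99% (5.71 to 8.44) and 13.8% (10.9 to 17.0), with 7.92% over all chromosomes. In untreated 2 they were 6.86% (5.17 to 8.90) and 19.9% (15 to 25.7), with 13.2% overall. In chromium 2 they were 3.07% (1.60 to 5.30) and 6.25% (2.06 to 14.0), from 12 and 5 peaks, with 5.20% overall. The intervals cover counting error only, since peaks of a list are not replicates. They did not meet in the first 3 lists and overlapped in chromium 2. The mean difference over the lists was 7.71 ± 4.08 percentage points (SD, n = 4 lists), and it has no test because each overlap uses 2 of the same libraries. The other lists covered 0.920% of the bases at 0 to 70 Mb and 0.604% beyond for untreated 1, 0.806% and 0.554% for chromium 1, 1.03% and 0.753% for untreated 2, and 1.16% and 0.845% for chromium 2. Most recurrent peaks beyond the border, 65 of the 75 in untreated 1, lay from 90 Mb on, where coverage was higher than at 0 to 70 Mb, with 1.28%, 1.18%, 1.56% and 1.75%. At 70 to 90 Mb it was 0.133%, 0.113%, 0.193% and 0.211%. Within the second stretch the recurrent share was 14.5%, 10.5%, 20.0% and 0 of 2 peaks at 70 to 90 Mb, and 17.6%, 14.4%, 19.9% and 6.41% from 90 Mb on. In each list the share at 0 to 70 Mb lay below that on the other chromosomes, which was 10.6%, 7.79%, 14.2% and 5.72%.

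**Figure D3:**
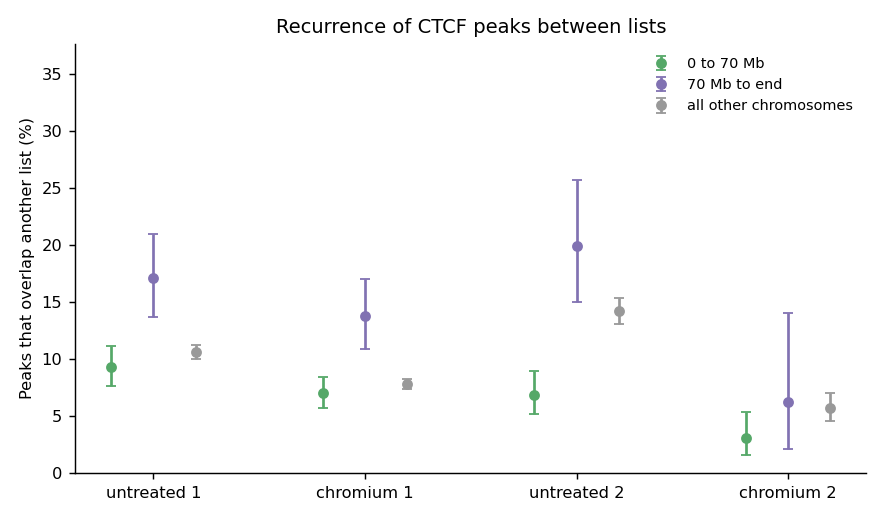
Percent of a list's peaks that overlap a peak of any other list by at least 1 bp, for 0 to 70 Mb, 70 Mb to the end, and all other chromosomes. Points are shares and bars exact 95% intervals for counting error only. In each list the share was higher from 70 Mb to the end than at 0 to 70 Mb, as 17.1% against 9.25% in untreated 1.

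The difference in recurrence varied with the rank of the peaks and with their place. Of the peaks above the 90th percentile of their list's score, 25 of 83 at 0 to 70 Mb and 35 of 63 beyond recurred in untreated 1, 30.1% and 55.6%. The values were 21.7% and 42.1% in chromium 1 and 21.8% and 45.2% in untreated 2, while chromium 2 had 1 of 30 and 0 of 3. Between the median and the 90th percentile they were 10.6% and 15.7% in untreated 1, 6.52% and 13.3% in chromium 1, 9.22% and 19.4% in untreated 2, and 6 of 132 and 0 of 27 in chromium 2. Below the median score, the shares were 5.03% on both sides in untreated 1, 4.68% and 5.06% in chromium 1, 3.17% and 12.4% in untreated 2, and 2.18% and 10.0% in chromium 2. At gene ends, 7 of 27 peaks at 0 to 70 Mb and 21 of 51 beyond recurred in untreated 1, and outside genes 8.61% and 17.1%. Inside genes the shares lay closer together, at 9.20% and 10.2% in untreated 1, 7.31% and 7.94% in chromium 1, 6.59% and 11.2% in untreated 2, and 4.86% and 3.33% in chromium 2.

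Scores themselves were higher beyond the border in 3 of the 4 lists. The median within-list percentile went from 45.5 at 0 to 70 Mb to 58.7 beyond in untreated 1, from 54.9 to 56.8 in chromium 1 and from 39.2 to 55.5 in untreated 2, but from 44.3 to 39.0 in chromium 2. The mean difference of 6.49 ± 10.0 (SD, n = 4) was not past the threshold (two-sided exact permutation test flipping the sign of each library's difference, p = 0.375, smallest possible 0.125). Median width was 236, 236, 235 and 223 bp before the border and 240, 238, 240 and 216 bp beyond it, a mean difference of 1.00 ± 5.48 bp (SD, n = 4, same exact test, p = 0.875). The median spacing of neighbouring midpoints was 37.9, 30.5, 55.8 and 111 kb at 0 to 70 Mb. It was wider at 70 to 90 Mb, with 129, 62.4, 347 and 1056 kb, and narrower from 90 Mb on, with 20.8, 16.3, 40.3 and 102 kb.

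Beyond 70 Mb a larger share of the peaks lay at the ends of genes, as did a larger share of the bases. Within 1 kb of a protein-coding gene's start or end lay 27 of 1113 peaks (2.43%) at 0 to 70 Mb and 51 of 439 (11.6%) beyond in untreated 1, against 7.36% over all chromosomes. The shares were 1.76% and 9.50% in chromium 1 (5.97% overall), 2.64% and 9.96% in untreated 2 (7.16% overall) and 1.02% and 7.5% in chromium 2 (4.30% overall). The mean difference was 7.68 ± 1.14 percentage points (SD, n = 4), with all 4 lists in this direction (two-sided exact permutation test by sign flips, p = 0.125, the smallest it can give). Gene ends took up 1.23% of the bases at 0 to 70 Mb and 5.89% beyond. Relative to these, peaks were 1.97, 1.43, 2.14 and 0.831 times as frequent at gene ends at 0 to 70 Mb and 1.97, 1.61, 1.69 and 1.27 times beyond, in the order untreated 1, chromium 1, untreated 2 and chromium 2. The share outside genes was lower beyond the border, at 48.1%, 49.0%, 47.6% and 55% against 59.5%, 59.6%, 63.3% and 62.1%, a mean difference of -11.2 points (same exact test, p = 0.125). Bases outside genes were 66.5% before and 47.6% beyond. Relative to these, peaks were 0.894, 0.897, 0.952 and 0.935 times as frequent before and 1.01, 1.03, 1.00 and 1.16 times beyond. Peaks inside genes away from their ends were 38.1%, 38.6%, 34.0% and 36.8% before and 40.3%, 41.5%, 42.4% and 37.5% beyond (mean difference 3.54 ± 3.36, exact p = 0.125). The bases there were 32.3% and 46.6%. Relative to them, peaks were 1.18, 1.20, 1.05 and 1.14 times as frequent before and 0.866, 0.891, 0.911 and 0.805 times beyond. The difference in the share inside genes turned to -6.86 points among peaks with a score of 5 or more and to -3.13 with lists of equal length.

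**Figure D4:**
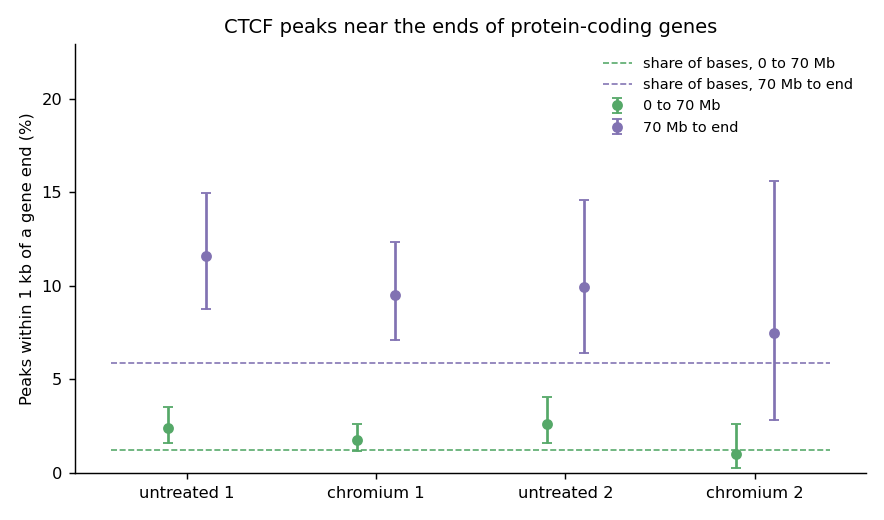
Percent of each list's peaks with the midpoint within 1 kb of an end of a protein-coding gene, at 0 to 70 Mb and from 70 Mb to the end. Bars are exact 95% intervals for counting error only, and dashed lines give the share of bases within 1 kb of gene ends, 1.23% and 5.89%. All 4 lists were higher beyond the border, as were the bases.

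Most chromosome 15 sites were seen in 1 list only. When overlapping peaks of different lists were merged into sites, 0 to 70 Mb held 3537 sites and 70 Mb to the end 1153. In 2 or more lists were 124 of the former (3.51%, exact 95% interval 2.92 to 4.17) and 84 of the latter (7.29%, 5.85 to 8.94), against 4.55% over all chromosomes. That is 1.77 and 2.47 such sites per Mb, so by this count the order of the stretches was opposite to that of all peaks. At 70 to 90 Mb it was 0.5 per Mb and from 90 Mb on 5.31 per Mb. In 3 or 4 lists were 17 and 25 sites (0.481% and 2.17%), against 0.793% over all chromosomes. In all 4 lists were 0 sites at 0 to 70 Mb and 2 beyond, against 0.0479%. The most frequent pattern among the recurrent sites was untreated 1 with chromium 1 only, the 2 longest lists, with 66 and 36 sites.

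Among the sites in 3 lists at 0 to 70 Mb, the highest mean score percentile was at an end of Ankrd46. Its site (chr15:36496626-36497023) was at percentile 98.8 of untreated 1, 99.7 of chromium 1 and 83.9 of untreated 2. The Wdr70 site (chr15:8099098-8099448), whose promoter sequence is shown above, was at 82.1, 98.9 and 98.0 in the same order. A site 13.5 kb from Azin1, which encodes the antizyme inhibitor of polyamine metabolism (chr15:38473776-38474177), was at 97, 80.8 and 96.3. A site 0.727 kb before the start of Rxfp3, a relaxin family receptor (chr15:11038473-11038917), was at 73.3, 97 and 89. Near Ywhaz, a 14-3-3 protein, the nearest gene to its site at 61.7 kb, the percentiles were 99.5, 59.3 and 96.5. The sites next in rank were near Slc1a3, a glutamate transporter, in Fyb, an adaptor of immune cells, in the promoter of Rpl37 inside the end of Card6, near Osmr, the oncostatin M receptor, and in Ptger4, a prostaglandin E2 receptor, with mean percentiles of 80.7, 80.6, 80.4, 76.9 and 74.3. All 10 were absent from chromium 2.

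Beyond 70 Mb the 10 leading sites ranked higher, but they were picked from 25 sites in 3 or 4 lists, against 17 before the border. The site 9.22 kb from Cbx5, the heterochromatin protein HP1 alpha (chr15:103182122-103182523), was at percentiles 99.9, 99.9 and 99.8 of untreated 1, chromium 1 and untreated 2. The site 20.6 kb from Calcoco1 (chr15:102742634-102742997) was at 99.5, 99.8 and 98.0. The Atp5g2 promoter site (chr15:102670977-102671612) was at 99.7, 98.5 and 96.5, and a second site inside the gene (chr15:102665503-102665895) at 94.3, 95.8 and 72. At an end of Slc48a1, a heme transporter (chr15:97784105-97784472), the values were 99.9, 99.8 and 94.4. The sites in Dip2b and near Top1mt, the mitochondrial topoisomerase, Ccdc65, Acvrl1, a receptor of the TGF-beta family, and Adamts20, a metalloprotease, had mean percentiles of 97.1, 94.7, 93.6, 90.7 and 89. Of these 10, the Top1mt site (chr15:75679278-75679635) alone lay below 90 Mb. These 10 were absent from chromium 2 as well. The lowest of their mean percentiles, 87.4, was above that of all but 3 of the leading sites at 0 to 70 Mb. This is a description, since both were picked by rank and from pools of unequal size. Outside the leading sites, those in 3 lists include low values on both sides. One near Tuba1c beyond the border was at 3.49 in chromium 1, and one near 9330182O14Rik before it at 8.74 in untreated 2.

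The 2 sites in all 4 lists had lower ranks. One lay 10.5 kb from Tmem106c (chr15:97952471-97952818), apart from the promoter peaks above, at percentiles of 98.4 and 98.5 in the number 1 lists, untreated and chromium, and of 52.7 and 45.1 in the number 2 lists. The other was 1.51 kb from the end of Aqp5, a water channel of glands (chr15:99595975-99596698), at 87.3, 88.3, 56.1 and 38.3.

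**Figure D5:**
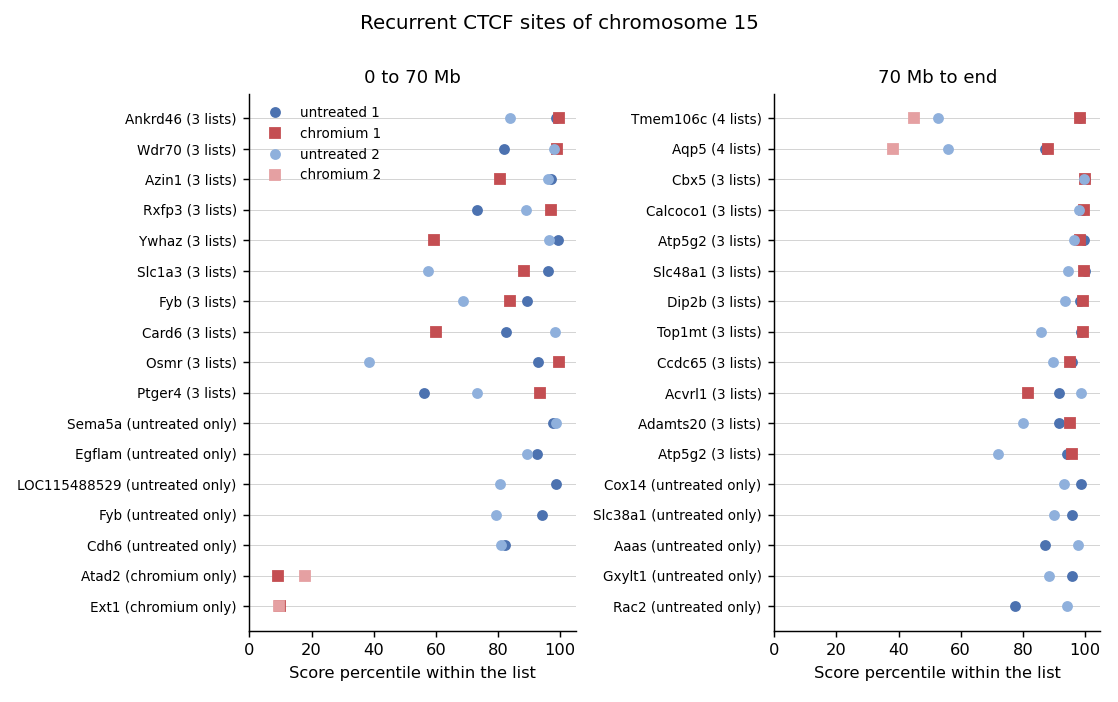
Score percentile within each list of the named sites, by nearest protein-coding gene, at 0 to 70 Mb (left) and 70 Mb to the end (right). Each point is 1 list, circles untreated and squares chromium, and the number or group of lists is in brackets. The leading sites with 3 lists beyond the border lay at 72 or above in every list that held them, and those before it reached down to 38.4.

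The chromium comparison asks whether treatment altered how peaks were spread over the chromosome. The stretch of 0 to 70 Mb held 9.51% of the peaks of untreated 1 and 9.52% of those of chromium 1, then 16.9% for untreated 2 and 20.5% for chromium 2. The share from 70 Mb to the end was 3.75%, 3.47%, 5.14% and 4.20%. Values followed the replicate number more closely than the treatment. For 0 to 70 Mb the difference, chromium minus untreated, was 1.84 percentage points (13.2 ± 5.20 untreated, 15 ± 7.78 chromium, SD, n = 2 each; two-sided exact permutation test, p = 0.667, smallest possible 0.333). It turned to -1.84 without untreated 1 and to -3.66 without chromium 2. For 70 Mb to the end the difference was -0.611 points (exact p = 0.667), and 0.0836 without untreated 2. The log2 ratio of the 2 densities was higher in the chromium list of both pairs, by 0.12 in pair 1 and 0.57 in pair 2 (mean difference 0.35, exact permutation p = 0.667), and the mean difference was -0.07 without chromium 2.

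Gene ends made up less of the chromium lists than of the untreated lists in both stretches, as they did on the other chromosomes, where the shares were 7.72% and 7.96% untreated and 6.29% and 5.02% chromium. At 0 to 70 Mb the share was lower by 0.662 points in pair 1 and by 1.62 points in pair 2, with means of 2.53% ± 0.150 untreated and 1.39% ± 0.524 chromium (SD, n = 2). From 70 Mb to the end it was lower by 2.12 and 2.46 points, with 10.8% ± 1.17 and 8.50% ± 1.41. In both stretches the groups did not overlap, and the two-sided exact permutation test gave p = 0.333, the smallest it can give. The counts behind this are small, 27, 25, 20 and 4 peaks at 0 to 70 Mb and 51, 49, 23 and 6 beyond. With a window of 2.5 kb the difference at 0 to 70 Mb was -0.652 points, and with lists of equal length -0.114 (exact permutation p = 1 for both), while from 70 Mb to the end it was -0.0888 among peaks with a score of 5 or more (exact p = 1).

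Sites in both untreated lists and neither chromium list were 15 at 0 to 70 Mb (0.424%) and 13 beyond (1.13%), against 0.633% over all chromosomes. The opposite pattern was found 2 times at 0 to 70 Mb and 0 times beyond, against 0.0479%. It needs a peak in chromium 2, the shortest list, with 1905 peaks. A pattern that mixes the treatments, chromium 1 with untreated 2 only, had 15 sites at 0 to 70 Mb (0.424%) and 8 beyond (0.694%). Over all chromosomes it was 0.428%. Without chromium 1 the counts of the untreated pattern were 31 and 35. Leading the untreated pattern at 0 to 70 Mb was a site 70.2 kb from Sema5a, a semaphorin (chr15:32766341-32766657), at percentiles of 97.7 and 98.8 in untreated 1 and untreated 2. Sites in Egflam, near LOC115488529, in Fyb and near Cdh6, a cadherin, followed, with mean percentiles of 91, 89.7, 86.9 and 81.5. Beyond the border the Cox14 promoter site led (chr15:99725318-99725667), at 98.8 and 93.4. Next were sites near Slc38a1, an amino acid transporter (93.0), at the start of Aaas, which encodes a nuclear pore protein (92.5), and near Gxylt1 (92.2) and Rac2, a GTPase of blood cells (85.9). Chromium 1 had a peak 0.807 kb away from the Cox14 site, 1.35 kb from the Cdh6 site and 2.26 kb from the Sema5a site. Its nearest to the Aaas, Fyb, Gxylt1 and Rac2 sites were at 3.25, 3.31, 5.06 and 5.38 kb. For the Egflam, Slc38a1 and LOC115488529 sites the distances were 13.9, 42.8 and 62.1 kb. The nearest chromium 2 peak to any of these sites was 3.14 kb away, at the Cdh6 site. The 2 sites with the opposite pattern were low in their lists, at percentiles of 9.35 and 18.0 in Atad2, a bromodomain ATPase, and 9.86 and 9.37 in Ext1, a heparan sulfate polymerase.

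Around Myc the chromosome was as rich in peaks as elsewhere before the border, but the gene itself had none. Within 1 kb of Myc (chr15:61985341-61990361) 0 of the 4 lists had a peak, and the nearest was 22.3 kb away in untreated 1, with 8.48 kb for chromium 1, 18.2 kb for untreated 2 and 23.3 kb for chromium 2. Within 500 kb there were 19, 24, 17 and 5. Pvt1, the neighbouring long non-coding RNA gene, held 5, 8, 5 and 2. Of the 12 genes of the Myc neighbourhood with a record, 7 had a peak inside or within 1 kb in 2 or more lists. That is near the share over all genes at 0 to 70 Mb, 135 of 224 (60.3%). Besides Pvt1 these were Nsmce2, a SUMO ligase of the SMC5/6 complex (7, 6, 1 and 2), Asap1 (7, 7, 2 and 2), Adcy8, an adenylyl cyclase (6, 6, 3 and 4), Mtss1 (3, 6, 6 and 1), Ndrg1 (2, 2, 2 and 1) and Atad2 (1, 1, 0 and 1).

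The Hoxc cluster, 116 kb with 9 genes (chr15:102921131-103036856), held 1 peak in each of untreated 1, chromium 1 and untreated 2 and 0 in chromium 2. These 3 peaks lay at different places, with starts at 102987451, 102980790 and 102989645. The chromium 1 peak was inside Hoxc9 and that of untreated 2 was 0.781 kb from Hoxc8. The untreated 1 peak was nearest to Hoxc8, at 2.89 kb. No peak midpoint fell inside or within 1 kb of Hoxc4, Hoxc5, Hoxc6, Hoxc10, Hoxc11, Hoxc12 or Hoxc13 in any list. Of all genes from 90 Mb on, 72.2% had a peak in any list. The Hoxc genes without one were 1.78 to 18.8 kb long, against a median of 14.2 kb for all genes there. The part of length was not tested. Within 500 kb of the cluster there were 33, 52, 24 and 3 peaks. Beside the cluster, Smug1, a uracil-DNA glycosylase, had 0, 2, 1 and 0 peaks and Cbx5 had 1, 1, 1 and 0.

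Genes from the lists for this chromosome split by stretch as the peaks did. Of 80 listed genes, 25 lay at 0 to 70 Mb, 21 at 70 to 90 Mb and 34 beyond. A peak inside or within 1 kb in any list was found at 23, 1 and 23 of these, and in 2 or more lists at 18, 0 and 12. Over all protein-coding genes of these stretches the shares were 84.8%, 15.5% and 72.2% in any list and 60.3%, 4.99% and 46.4% in 2 or more, so the listed genes followed the genes around them. Median lengths of the listed genes were 77.0, 10.0 and 8.01 kb, and the part of length in these counts was not tested. The 1 gene from 70 to 90 Mb was Maf1, a repressor of RNA polymerase III, in untreated 1. Ppara and Srebf2, transcription factors of fatty acid and sterol metabolism, Cyp2d22, a cytochrome P450, Ep300, a histone acetyltransferase, Hsf1, the heat shock factor, and Atf4, a stress response factor, had 0 in all 4 lists.

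The counts by list are descriptions beside the shares of all genes in each stretch, and nothing particular to a list is read from them. Of 10 genes for cohesin and chromosome structure, 7 had peaks in 2 or more lists. These 10 were spread over the stretches. Of all genes, 60.3% at 0 to 70 Mb, 4.99% at 70 to 90 Mb and 46.4% from 90 Mb on had such peaks. Nipbl, the cohesin loader, had 1, 1, 3 and 2 peaks, Trps1, a GATA-type repressor, 5, 2, 4 and 2, and Arid2, a subunit of the PBAF remodeller, 4, 4, 2 and 1. The others were Dscc1 (0, 1, 1 and 0), Espl1, the separase (1, 2, 0 and 1), Kmt2d (0, 1, 1 and 0) and Smarcd1 (2, 2, 1 and 0). Rad21, the kleisin subunit of cohesin, had 2 in untreated 1 only. Of 16 liver metabolism genes on the chromosome, 7 had them in 2 or more lists, all but Gpd1 at 0 to 70 Mb, where 60.3% of all genes did, against 20.7% from 70 Mb on. Ghr, the growth hormone receptor, had 2, 4, 3 and 2, Oxct1, an enzyme of ketone body use, 5, 0, 2 and 1, and Prlr, the prolactin receptor, 1, 4, 0 and 2. The complement genes C6, C7 and C9 had 2, 1, 2 and 0, then 0, 1, 2 and 2, then 1, 2, 0 and 0. Gpd1, cytosolic glycerol-3-phosphate dehydrogenase, had 1, 1, 1 and 0. Its peaks in untreated 1 and untreated 2, 0.48 and 0.44 kb from the end of Gpd1, were those of the Cox14 promoter site.

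Of 12 stress and DNA damage genes, 4 had peaks in 2 or more lists. Over all genes the shares were 60.3% at 0 to 70 Mb, 4.99% at 70 to 90 Mb and 46.4% beyond. The 4 were Smug1, Nsmce2, Deptor, an inhibitor of mTOR (2, 1, 0 and 1), and Rictor, a subunit of mTORC2 (3, 0, 4 and 0). Of the 5 metal and heme genes on the chromosome, Slc48a1 (1, 1, 2 and 1) and Slc11a2, the iron importer DMT1 (2, 2, 1 and 1), had peaks in every list. Both lay from 90 Mb on, where 46.4% of all genes had peaks in 2 or more lists. Slc39a4, Maf1 and Cyc1 did not, and lay at 70 to 90 Mb, where 4.99% of all genes did. Of 7 keratins, Krt8, a keratin of simple epithelia including the liver (1, 2, 1 and 0), and Krt7 (0, 2, 1 and 1) had them in 2 or more lists. All 7 lay from 90 Mb on, where 46.4% of all genes did. Of 10 genes of other cell types, Col2a1 of cartilage alone did so, with 2, 0, 0 and 1. Those 10 lay at 70 to 90 Mb or from 90 Mb on, where the shares of all genes were 4.99% and 46.4%.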

How the data were processed

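Each CTCF library had 1 list of peaks with a position and a score per peak. Bowtie, MACS2 and the build mm10 are named per the submitters' processing notes. The sources used here do not give versions, thresholds or read totals. By the peak names, the authors called each library by itself against the input of its number. The deposited score has no stated scale and was ranked within its list.

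Positions were made 1-based. Since no chromosome length was used here, the last stretch ends at base 103942648, the last RefSeq gene or peak. Protein-coding genes came from RefSeq (GRCm38.p6), with 774 on chromosome 15. Another 108 records, 2 of them on chromosome 15, were left out because they end before 3 Mb, where no peak lies. Whether those positions belong to unplaced sequence was not checked. Promoter windows matched 422 of the 774 genes. Peaks of different lists matched with an overlap of at least 1 bp, and connected matches were merged into sites.

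Shares have exact Clopper-Pearson 95% intervals. Treatment was compared by a two-sided exact permutation test of 2 libraries against 2, and stretches by sign flips over the 4 libraries. The named sites are up to 10 per stretch in 3 or 4 lists and up to 5 per treatment pattern, by mean score percentile, with the listed genes that have peaks in 2 or more lists, Myc, the Hoxc genes, the 3 densest bins and the peaks beside the border. Sites in all 4 lists outside this rule, the bin from 73 Mb and the genes named without such peaks were added after their values were seen. The members and lists were chosen with earlier results of these data known. Site merging and both tests were tested on simulated data. Python 3.11.15, numpy 2.4.6, pandas 2.3.3, scipy 1.17.1 and matplotlib 3.10.9 were used.

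The replicate number is also that of the shared input, which pairs the libraries. Over 101 bins of 1 Mb, the deviations of untreated 1 and chromium 1 from their group means had a Pearson's r of 0.44, from 1 pair of deviations in effect.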

Additional observations from a re-analysis of the deposited data

Results flagged for a closer look

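The number of chromosome 15 peaks moved in opposite directions in the 2 pairs of libraries. At 0 to 70 Mb chromium 1 had more peaks than untreated 1, a log2 fold of 0.35, and chromium 2 fewer than untreated 2, -0.95 on the same scale. From 70 Mb to the end the values were 0.23 and -1.53. The whole lists differed likewise, by 0.35 in pair 1 and -1.24 in pair 2. With 1 library of each kind in a pair, the difference between the pairs was not tested.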

How the results depend on the processing

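The mean log2 density ratio stayed positive with borders at 65 or 75 Mb, without the first 3 Mb and with clusters within 1 kb counted once. Peaks at or above the median score, scores of 5 or more and lists of equal length kept it positive as well. But it was 0.38 ± 0.39 (SD over 4 lists) with the border at 75 Mb and 0.26 ± 0.70 with lists of equal length. At or above the median score it was 0.51 ± 0.60, and for scores of 5 or more 0.62 ± 1.04. These means were no larger than their spread. The division at 90 Mb, chosen after the data were seen, gave 3.42 for 70 to 90 Mb and -0.46 for 90 Mb to the end. The mean difference in recurrence kept its sign under every setting run, with 3 of 4 lists in that direction for peaks at or above the median score, for scores of 5 or more and for 70 to 90 Mb alone. It was 13.4 points with lists of equal length, and 5.15 to 9.37 with 1 library left out. Counts of sites fell with fewer peaks. For peaks at or above the median score, for scores of 5 or more and for lists of equal length, sites in 3 or 4 lists were 11, 4 and 1 at 0 to 70 Mb and 16, 11 and 11 beyond. Sites in 2 or more lists were 64, 45 and 31 before the border, and 47 and 36 beyond under the last 2 settings. Sites in both untreated lists only were 7, 7 and 7 before, and 7 and 8 beyond under the last 2. With 1 library left out these ranged from 16 to 1025 and from 13 to 377, where a missing untreated list asks only for the other. The share inside genes turned to -6.86 points with scores of 5 or more and to -3.13 with equal lists. The difference in width was -0.875 bp with the border at 65 Mb and -0.333 to 3.67 bp with 1 library left out. Leaving out 1 library, the treatment difference in the share of peaks ranged from -3.66 to 7.34 points at 0 to 70 Mb and from -1.31 to 0.0836 beyond, and that of the log2 density ratio from -0.0708 to 0.76. The stricter letters (CC, any 3 letters, AGGGGGC) were in 10.9% of the chromosome 15 windows with a peak. The causes were not tested.

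With the replicate number as a block, the test flips the sign of 2 paired differences and cannot give a p under 0.5. The differences under this pairing were the same, 1.84 and -0.611 points for the shares of peaks, 0.35 for the log2 ratio, and -1.14 and -2.29 points for gene ends, each at an exact p of 0.5, so it changed no call. No depth is known, peaks are not independent, and 2 libraries a group cannot reach a p of 0.05.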
